A study of Mus musculus with 8 samples.

Results

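The genes described here are 8 enzymes of liver metabolism, 5 that break down tyrosine and tryptophan (Tat, Tdo2, Hpd, Hgd and Fah) and 3 that make glucose (G6pc, Pck1 and Fbp1). They were taken by symbol from the probes whose RefSeq accession names them, 8 of the 20660 genes that could be named on the array, and each has exactly 1 probe. Their RNA was measured on 8 single-colour Agilent arrays of 1 slide in BMEL cells, a mouse line established from embryonic liver whose cells can take a hepatocyte or a bile duct fate. The cells were kept in 3 media, labelled DIFF (n = 2 arrays), CM (n = 3) and NoRX (n = 3). The series title places the study in the question of how liver progenitors respond to medium conditioned by human amniotic epithelial cells. The labels spell out none of the 3 medium names and give no composition, time or passage, and all groups share the same line. The labels do not say whether the replicates are separate cultures, and the p-values therefore reflect only array-to-array spread, which may be technical.

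In hepatocytes tyrosine is degraded by a linear chain. Tyrosine aminotransferase (Tat) starts it, 4-hydroxyphenylpyruvate dioxygenase (Hpd) makes homogentisate, and homogentisate dioxygenase (Hgd) opens the aromatic ring. Fumarylacetoacetase (Fah) ends the chain by releasing fumarate and acetoacetate. Tryptophan dioxygenase (Tdo2) opens the indole ring of tryptophan at the head of the kynurenine route. Glucose is built back from oxaloacetate through phosphoenolpyruvate carboxykinase (Pck1), fructose bisphosphatase (Fbp1) and the catalytic subunit of glucose-6-phosphatase (G6pc). Tat, Pck1 and G6pc are known in rodent liver as genes that come on around birth. Glucocorticoids and cyclic AMP are known to induce Tat, Tdo2, Pck1 and G6pc there.

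The promoters of 6 of these genes are shown, for the following reasons. Tat and Hpd stood highest in DIFF cells, Fah was lowest in CM cells, and Pck1 holds 1 of the motifs searched. G6pc and Fbp1 had their highest group means in CM cells, although no difference of G6pc passed the test. Each is the RefSeq window in GRCm38.p6 from 250 bases before the annotated start to 50 after it, on the gene's own strand. The windows are chr8:109990186-109990485 on the plus strand for Tat, chr5:123182674-123182973 on the minus strand for Hpd and chr7:84605893-84606192 on the minus strand for Fah. Those of the glucose genes are chr11:101367466-101367765 on the plus strand for G6pc, chr13:62888233-62888532 on the minus strand for Fbp1 and chr2:173152823-173153122 on the plus strand for Pck1. Capitals mark matches, on either strand, to 5 motifs of liver transcription factors.
Tat: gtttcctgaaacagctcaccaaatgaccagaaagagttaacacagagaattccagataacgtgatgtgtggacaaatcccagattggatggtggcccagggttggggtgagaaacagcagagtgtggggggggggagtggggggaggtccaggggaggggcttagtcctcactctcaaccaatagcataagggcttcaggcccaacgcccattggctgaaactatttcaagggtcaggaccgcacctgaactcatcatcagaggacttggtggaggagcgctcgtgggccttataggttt
Hpd: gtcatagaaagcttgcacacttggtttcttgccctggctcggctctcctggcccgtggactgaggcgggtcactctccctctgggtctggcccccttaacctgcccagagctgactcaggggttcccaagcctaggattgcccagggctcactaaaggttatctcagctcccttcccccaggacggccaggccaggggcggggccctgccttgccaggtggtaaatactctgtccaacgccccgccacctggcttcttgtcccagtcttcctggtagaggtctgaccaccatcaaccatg
Fah: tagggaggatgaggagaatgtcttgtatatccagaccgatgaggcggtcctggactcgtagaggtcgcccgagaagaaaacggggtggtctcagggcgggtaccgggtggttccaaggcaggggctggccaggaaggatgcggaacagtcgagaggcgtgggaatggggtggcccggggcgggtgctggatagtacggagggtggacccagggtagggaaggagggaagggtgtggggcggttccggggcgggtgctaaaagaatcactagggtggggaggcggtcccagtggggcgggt
G6pc: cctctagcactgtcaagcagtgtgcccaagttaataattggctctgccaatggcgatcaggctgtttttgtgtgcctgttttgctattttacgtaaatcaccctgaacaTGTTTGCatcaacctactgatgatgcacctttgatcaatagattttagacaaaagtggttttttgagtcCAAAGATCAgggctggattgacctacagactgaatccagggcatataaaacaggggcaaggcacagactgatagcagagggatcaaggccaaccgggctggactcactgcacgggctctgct
Fbp1: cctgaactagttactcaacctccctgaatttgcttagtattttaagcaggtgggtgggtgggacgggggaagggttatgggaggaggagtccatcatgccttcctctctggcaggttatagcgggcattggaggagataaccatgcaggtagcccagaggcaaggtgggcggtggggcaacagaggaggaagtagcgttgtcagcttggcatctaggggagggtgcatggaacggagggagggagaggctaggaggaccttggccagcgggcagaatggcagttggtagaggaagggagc
Pck1: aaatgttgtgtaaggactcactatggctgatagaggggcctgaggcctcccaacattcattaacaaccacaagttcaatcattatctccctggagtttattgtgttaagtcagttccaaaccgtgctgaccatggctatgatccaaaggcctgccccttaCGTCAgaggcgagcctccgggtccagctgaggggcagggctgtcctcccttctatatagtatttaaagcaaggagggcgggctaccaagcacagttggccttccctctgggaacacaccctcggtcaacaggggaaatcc

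The motifs searched on both strands were the CREB core TGACG, the glucocorticoid receptor core TGTTCT, the forkhead core TGTTTNC, the C/EBP core TTGCNNAA and the HNF4 core CAAAGNNCA. No 2 matches overlapped in these 8 promoters. The G6pc promoter held a forkhead match 141 and an HNF4 match 72 bases before the start. The Pck1 promoter held a CREB match 90 bases before the start. Of the promoters not printed, Tdo2 held a forkhead match 182 bases before the start and Hgd held 2 C/EBP matches. The Tat, Hpd, Fah and Fbp1 windows held none of the 5 motifs in these letters. Among all 32851 RefSeq promoters of this length, 20.8% held the CREB, 19% the glucocorticoid receptor, 20.5% the forkhead, 10.8% the C/EBP and 6.36% the HNF4 letters. The share of G and C bases ran from 41.0% in Hgd to 64.3% in Fah, with a median of 52.7% over all promoters.

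Signals are given as a percentage of the 75th percentile of the same array, taken over spots that are neither controls nor outliers, and differences on the log2 scale of that ratio, with their SE and with adjusted p-values from limma over 14025 genes. Between 50.8% and 53.5% of spots were well above background on 7 arrays and 46.4% on DIFF replicate 2, where the scanner marked the local background of 1159 spots as uneven (3 to 90 on the other arrays). The 2 DIFF arrays correlated across genes at 0.960, the CM arrays at 0.991 to 0.993 and the NoRX arrays at 0.994, and the median SD of a gene was 0.160 in DIFF and 0.064 in CM and in NoRX. No spot of the 8 enzymes carried a mark for uneven background or as an outlier. Row 2 of the slide held the DIFF arrays with CM replicates 2 and 3, and row 1 held CM replicate 1 with the NoRX arrays. Against the label of a liver progenitor, the hepatoblast marker Afp was well above background on every array, while Gpc3 and Igf2 were on none. Of 7 hepatocyte markers, 6 were well above background on both DIFF arrays, 4 on all CM arrays and 3 on all NoRX arrays, and all 6 cholangiocyte markers were on every CM and NoRX array and 5 on both DIFF arrays.

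Of the 8 enzymes, Fah and Tat were well above background on every array, Fbp1 and G6pc on all CM arrays, Hpd on 1 DIFF array, and Tdo2, Hgd and Pck1 on none. Tat was 2.35-fold higher in DIFF than in NoRX cells and 2.09-fold higher than in CM cells. Fah was 1.87-fold lower in CM than in NoRX cells, and 1.99-fold higher in DIFF than in CM cells. Fbp1 was above background in CM cells alone. In DIFF against NoRX, 1 of the 4 enzymes tested passed the adjusted p threshold of 0.05, where 45.4% of all genes tested did, and it was higher, where 16.5% were. In DIFF against CM 3 of 4 passed, where 61.7% of all genes did. These were 2 higher, where 26.1% of all genes were, and 1 lower, where 35.6% were. In CM against NoRX 2 of 4 passed, where 55.8% of all genes did, with 1 higher (28.6% of all genes) and 1 lower (27.3%). The 1 higher was Fbp1, which was also the 1 lower in DIFF against CM. Fbp1 was among the 4 tested only through its CM arrays, the group where it was high. These shares of all genes are large, and the counts of enzymes are read as no result about the group of 8.

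**Figure D1:**
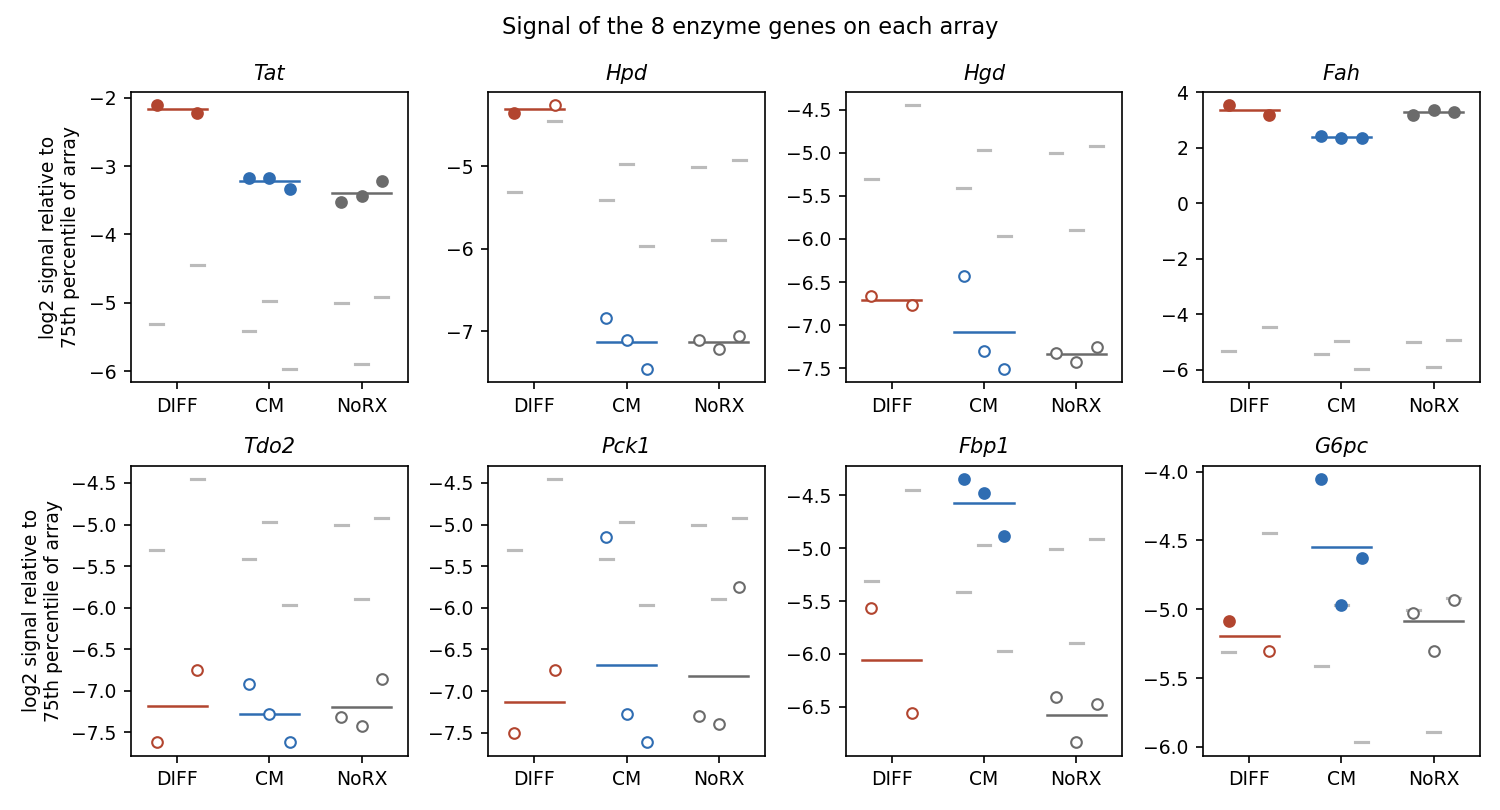
Signal of each of the 8 enzymes on each array, as log2 relative to the array's 75th percentile (y axis, own range per panel), by medium (x axis, DIFF, CM and NoRX). Filled points were well above background and open points were not, coloured lines are group means, and short grey bars mark the lowest signal that was well above background on that array. Tat stands highest in DIFF, Fah lowest in CM, and Fbp1 is filled in CM only.

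Tat (probe A_51_P228574), the aminotransferase that starts tyrosine breakdown, had 23.2% and 21.5% of the 75th percentile on the DIFF arrays. It had 11.1%, 11.1% and 9.95% on the CM arrays and 8.70%, 9.23% and 10.7% on the NoRX arrays. Both DIFF arrays lay above all others, while the CM and NoRX values overlapped. The mean log2 level was -2.16 ± 0.08 in DIFF (SD, n = 2), -3.23 ± 0.09 in CM (n = 3) and -3.39 ± 0.15 in NoRX (n = 3). Tat rose by 1.23 ± 0.16 in DIFF against NoRX (SE, limma adjusted p = 0.000128), a difference larger than that of 95% of the genes tested. It rose by 1.06 ± 0.16 in DIFF against CM (limma adjusted p = 0.000213). In CM against NoRX the Tat difference was 0.17 ± 0.14 and did not pass (limma adjusted p = 0.347). Within row 2 of the slide, the DIFF minus CM difference of Tat was 1.09 (limma adjusted p = 0.000292), and no row holds both DIFF and NoRX arrays.

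The summed signal of the 7 hepatocyte markers was 12999% to 16370% of the 75th percentile on the DIFF arrays, 322% to 458% on the CM arrays and 306% to 332% on the NoRX arrays. Cps1 and Cyp3a11 among them were at background on every CM and NoRX array. Asgr1, a receptor of hepatocytes, ran the other way: it was at background on both DIFF arrays and every NoRX array and at least 11.6-fold lower in DIFF than in CM cells (limma adjusted p = 2.96e-06). It was at least 15.3-fold higher in CM than in NoRX cells (limma adjusted p = 3.05e-06). Asgr1 passed the filter of 2 arrays well above background through its CM arrays alone. The p-values of Asgr1 belong to fitted differences of -4.56 (DIFF minus CM) and 4.43 (CM minus NoRX), not to the bounds. The part of these markers in the Tat difference was not tested, and in bulk samples a change in the number of cells of a type cannot be told apart from a change in RNA per cell. Markers of adipocytes summed to 765% to 897% in DIFF, 123% to 137% in CM and 77.7% to 107% in NoRX, with Adipoq, Lep and Plin1 at background on all arrays. That sum came mostly from Fabp4, the only one of them well above background on both DIFF arrays (mean log2 level 3.04 in DIFF).

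Hpd (A_51_P288341), the dioxygenase that makes homogentisate, had 4.91% and 5.23% on the DIFF arrays. It had 0.873%, 0.727% and 0.569% on the CM arrays, and 0.728%, 0.670% and 0.749% on the NoRX arrays. The DIFF arrays lay apart from all others, but the spot was called well above background only on DIFF replicate 1. On DIFF replicate 2 its signal of 49.4 units was not called so, although it exceeded that array's lowest signal well above background, 43.2 units. With 1 array above background Hpd fell under the filter of 2 arrays and was not tested in the fit over 14025 genes. Set against the lowest signal well above background on the dimmer arrays, Hpd was at least 1.96-fold higher in DIFF than in NoRX cells and at least 2.21-fold higher in DIFF than in CM cells. A fit over all 20660 genes without the filter gave 2.83 ± 0.31 for DIFF against NoRX (limma adjusted p = 0.000117) and 2.83 ± 0.31 for DIFF against CM (limma adjusted p = 6.56e-05). For CM against NoRX that fit gave -0.01 ± 0.27 (limma adjusted p = 0.99), with both groups at background. The size and SE of its 2 DIFF differences thus depend on the background level of the CM and NoRX arrays. The fit without the filter is therefore not read as a call of Hpd.

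Hgd (A_52_P40293), the ring-opening enzyme after Hpd, lay between 0.549% and 1.16% on all 8 arrays and was well above background on none. Its DIFF arrays had 0.989% and 0.919%, its CM arrays 1.16%, 0.635% and 0.549%, and its NoRX arrays 0.624%, 0.580% and 0.657%. The DIFF values exceed the NoRX values without overlap and overlap those of CM, and no fold is given between groups that are all at background. Hgd read 8.67 units on DIFF replicate 2, near that array's lowest signal of 8.19, and 7.39 on DIFF replicate 1, where the lowest was 3.73. The NoRX signals of 4.78, 4.31 and 4.62 units were near their arrays' lowest, 4.75, 4.29 and 4.60. The lack of overlap is therefore not read as a difference in Hgd. Tdo2 (A_52_P404341), the tryptophan dioxygenase, lay between 0.508% and 0.930% on all arrays, and all 3 groups overlapped.

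Fah (A_52_P302496), the last enzyme of the chain, had 1161% and 914% of the 75th percentile on the DIFF arrays. It had 536%, 505% and 513% on the CM arrays and 913%, 1017% and 977% on the NoRX arrays. The 3 CM arrays lay below all others, while the DIFF and NoRX values overlapped. The mean log2 level was 3.36 ± 0.24 in DIFF (SD, n = 2), 2.37 ± 0.04 in CM (n = 3) and 3.28 ± 0.08 in NoRX (n = 3). Fah fell by 0.90 ± 0.09 in CM against NoRX (SE, limma adjusted p = 1.25e-05), and 6.83% of the genes tested had a lower difference. It was higher by 0.99 ± 0.10 in DIFF against CM (limma adjusted p = 8.9e-06). Row 1 holds CM replicate 1 alone with the NoRX arrays, so a value within it takes its spread from NoRX only and assumes that CM varies likewise. There the CM minus NoRX difference of Fah was -0.85 (limma adjusted p = 0.000334). Within row 2 the DIFF minus CM difference was 1.02 (limma adjusted p = 1.49e-07).

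For DIFF against NoRX the Fah difference was 0.09 ± 0.10 (limma adjusted p = 0.481). Without DIFF replicate 2 it was 0.26 (limma adjusted p = 0.00924), and without DIFF replicate 1 it was -0.08 (limma adjusted p = 0.313). Each of these fits leaves a single DIFF array, assumed to vary like the CM and NoRX arrays. The 2 DIFF arrays place Fah on either side of the NoRX mean.

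Tat and Fah did not vary together over the media: Tat was high in DIFF cells, and Fah was low in CM cells. Over the 8 arrays, which share 1 slide and this scaling, their log2 levels correlated at 0.38 (Pearson's r). Hpd had its higher values on the same 2 arrays as Tat.

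**Figure D2:**
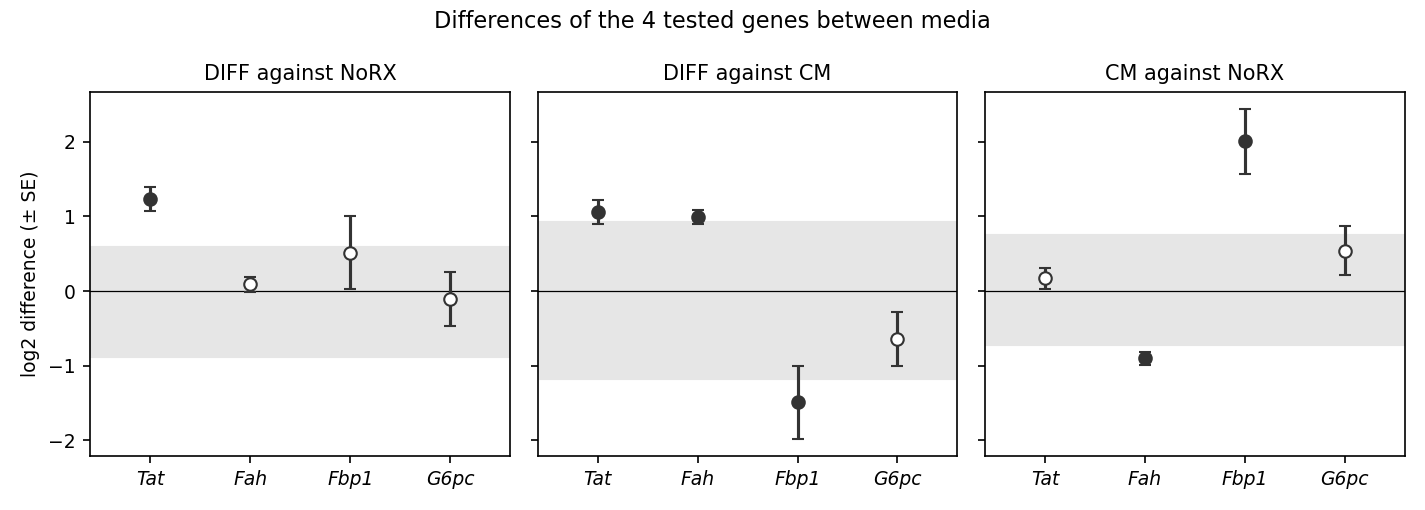
Log2 difference (y axis) of the 4 enzymes tested in each comparison, with error bars of 1 SE. Filled points passed the adjusted p threshold of 0.05 in limma, and the grey band spans the middle 80% of the differences of all genes tested. Tat lies above the band in both DIFF comparisons. In DIFF against CM Fah also lies above it and Fbp1 below it, and in CM against NoRX Fbp1 lies above it and Fah below it.

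Fbp1 (A_51_P474701), the bisphosphatase that reverses the phosphofructokinase step, had 2.11% and 1.06% of the 75th percentile on the DIFF arrays. It had 4.93%, 4.48% and 3.39% on the CM arrays and 1.18%, 0.875% and 1.12% on the NoRX arrays. The CM arrays lay above all others and were the only ones well above background, and DIFF and NoRX values overlapped. Fbp1 thus passed the filter through its CM arrays alone. The mean log2 level was -6.06 ± 0.70 in DIFF (SD, n = 2), -4.57 ± 0.28 in CM (n = 3) and -6.57 ± 0.23 in NoRX (n = 3). Fbp1 was at least 1.63-fold higher in CM than in NoRX cells, with a fitted difference of 2.01 ± 0.44 (SE, limma adjusted p = 0.00304). It was lower in DIFF than in CM cells, at least 1.24-fold, with a fitted difference of -1.49 ± 0.49 (limma adjusted p = 0.023). In DIFF against NoRX both groups were at background, and the fitted difference of 0.51 ± 0.49 did not pass (limma adjusted p = 0.425). Within row 1, with its single CM array, the CM minus NoRX difference was 2.23 (limma adjusted p = 0.008), and within row 2 the DIFF minus CM difference was -1.38 (limma adjusted p = 0.0224).

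The Fbp1 calls were less stable than those of Tat and Fah. After normexp background correction the CM minus NoRX difference was 0.33 (limma adjusted p = 0.383) and the DIFF minus CM difference was 0.24 (limma adjusted p = 0.534). The DIFF minus CM call was also lost without DIFF replicate 2 (-0.995, limma adjusted p = 0.132), without CM replicate 1 (-1.38, limma adjusted p = 0.0636) and without CM replicate 2 (-1.45, limma adjusted p = 0.0707). It was lost too with array weights (-1.50, limma adjusted p = 0.211) and with slide row as a block (-1.38, limma adjusted p = 0.0553).

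G6pc (A_51_P462385), the enzyme that frees glucose from its phosphate, had 2.94% and 2.54% on the DIFF arrays. It had 6.03%, 3.19% and 4.05% on the CM arrays and 3.06%, 2.53% and 3.27% on the NoRX arrays. All CM arrays and DIFF replicate 1 were well above background and no NoRX array was. The CM arrays lay above the DIFF arrays without overlap, and CM replicate 2 lay within the NoRX range. The mean log2 level was -5.19 ± 0.15 in DIFF (SD, n = 2), -4.55 ± 0.46 in CM (n = 3) and -5.09 ± 0.19 in NoRX (n = 3). No comparison of G6pc passed: the differences were 0.54 ± 0.33 in CM against NoRX (limma adjusted p = 0.191), -0.11 ± 0.37 in DIFF against NoRX (limma adjusted p = 0.836) and -0.64 ± 0.37 in DIFF against CM (limma adjusted p = 0.152). Within row 1, whose single CM array is the highest of the 3, the CM minus NoRX difference was 1.04 (limma adjusted p = 0.0313, with spread from NoRX arrays only). Within row 2 the DIFF minus CM difference was -0.40 (limma adjusted p = 0.489).

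Pck1 (A_66_P121110), the cytosolic carboxykinase, had 0.550% and 0.928% on the DIFF arrays. It had 2.82%, 0.643% and 0.509% on the CM arrays and 0.636%, 0.594% and 1.85% on the NoRX arrays. It was well above background on none, CM replicate 1 and NoRX replicate 3 stood above the rest, and the 3 groups overlapped.

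Fbp1, G6pc and Pck1 are also expressed in kidney proximal tubule, whose markers summed to 42.9% to 49.7% in DIFF, 88.8% to 99.8% in CM and 114% to 126% in NoRX, with Lrp2 at background on every array. Enterocyte markers summed to 3569% to 4141% in DIFF, 5381% to 5636% in CM and 6483% to 6818% in NoRX. Among them Alpi was higher in CM than in NoRX cells (1.35, limma adjusted p = 4.08e-06), while Fabp2 (-0.82), Vil1 (-0.28) and Lct (-1.71) were lower. Macrophage markers summed to 112% to 150% in DIFF, 325% to 332% in CM and 196% to 240% in NoRX, with Adgre1 and Lyz2 at background on every array. Stellate cell and fibroblast markers summed to 21.4% to 27.9% in DIFF, 116% to 118% in CM and 48.7% to 50.1% in NoRX, with Pdgfrb and Lrat at background on every array. Both sums were highest in CM cells, as Fbp1 was, but in CM each came mostly from 1 gene. Csf1r had a mean log2 level of 1.69 in CM and the next macrophage marker, Ptprc, -5.07. Des had 0.01 in CM and the next stellate cell and fibroblast marker, Col1a1, -3.09. The part of these markers in the Fbp1 result was not tested. Of the single markers, Des (1.93, limma adjusted p = 9.41e-07) and Csf1r (0.56, limma adjusted p = 0.00173) were higher in CM than in NoRX cells, while Col1a1 was lower (-0.66, limma adjusted p = 0.00398). Over the 8 arrays Fbp1 correlated at 0.75 with G6pc and at -0.84 with Fah (Pearson's r), arrays that share the 3 media. Both correlations rest in part on Fbp1 values at background, and that with G6pc also on G6pc values at background.

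Around these 8 enzymes, 23 further genes of phenylalanine, tyrosine and tryptophan breakdown were on the array, of which 17 were tested. DIFF cells had 5 of them higher, 5 lower and 7 not past the test against NoRX cells, with a median difference of -0.12, where 16.5% of all genes were higher and 28.9% lower with a median of -0.08. Against CM cells they had 7 higher, 6 lower and 4 not past the test, with a median of 0.10, where 26.1% of all genes were higher and 35.6% lower with a median of -0.09. CM cells had 5 higher, 6 lower and 6 not past the test against NoRX cells, with a median of -0.08, where 28.6% of all genes were higher and 27.3% lower with a median of 0.01. The list moved in both directions in each comparison.

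Within that list, Kyat3, an aminotransferase of kynurenine, had 73.4% and 62.4% on the DIFF arrays, 4.67%, 4.04% and 3.92% on the CM arrays and 17.8%, 21.4% and 20.0% on the NoRX arrays. The 3 groups were apart, and Kyat3 rose by 1.78 ± 0.16 in DIFF against NoRX (limma adjusted p = 7.35e-06) and by 4.01 ± 0.16 in DIFF against CM (limma adjusted p = 1.03e-08). It fell by 2.23 ± 0.14 in CM against NoRX (limma adjusted p = 7.6e-07), a call lost when its probes were averaged (-0.72, limma adjusted p = 0.174). Averaged probes also brought its DIFF minus CM difference to 2.35, and normexp to 2.62, both past the test. Hpdl, a relative of Hpd that makes 4-hydroxymandelate in human cells, had 19.5% and 17.8% on the DIFF arrays, 10.6%, 7.13% and 8.50% on the CM arrays and 49.3%, 47.9% and 54.1% on the NoRX arrays. Unlike the Hpd probe, that of Hpdl was highest in NoRX. Hpdl fell by 1.44 ± 0.17 in DIFF against NoRX (limma adjusted p = 6.13e-05, or -0.90 under normexp) and by 2.54 ± 0.15 in CM against NoRX (limma adjusted p = 5.34e-07), and was higher by 1.11 ± 0.17 in DIFF against CM (limma adjusted p = 0.000229).

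Gch1, which starts the synthesis of tetrahydrobiopterin, a cofactor of aromatic amino acid metabolism, fell by 1.44 ± 0.09 in DIFF against NoRX (limma adjusted p = 4.16e-07) and by 2.46 ± 0.09 in DIFF against CM (limma adjusted p = 4.81e-09). Kyat1, another kynurenine aminotransferase, rose by 0.99 ± 0.07 in DIFF against NoRX (limma adjusted p = 2.19e-06) and by 1.35 ± 0.07 in CM against NoRX (limma adjusted p = 1.66e-07). Il4i1, a secreted oxidase of aromatic amino acids, was lower by 0.80 ± 0.10 in DIFF against CM (limma adjusted p = 3.88e-05). In DIFF against NoRX its difference of 0.21 ± 0.10 did not pass (limma adjusted p = 0.0949). Both Il4i1 (1.02 ± 0.09, limma adjusted p = 5.21e-06) and Gch1 (1.02 ± 0.08, limma adjusted p = 2.51e-06) rose in CM against NoRX. Ido2, a tryptophan dioxygenase outside the Tdo2 family, had 0.777%, 0.749% and 0.603% on the CM arrays and 10.2%, 3.51% and 1.22% on the NoRX arrays. The CM arrays were at background, the NoRX arrays disagreed with each other, and Ido2 passed the filter through 2 NoRX arrays alone. It was at least 1.54-fold lower in CM than in NoRX cells. The fitted difference, not this bound, was tested. It was -2.32 ± 0.73 (limma adjusted p = 0.0206), a call lost under 6 of 23 alternatives.

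Of 19 further genes of gluconeogenesis and glucose output, 16 were tested. Against NoRX, 7 were higher in DIFF, 5 lower and 4 not past the test (median 0.15), beside 16.5% of all genes higher and 28.9% lower (median -0.08). Against CM, 9 were higher in DIFF, 6 lower and 1 not past the test (median 0.41), beside 26.1% of all genes higher and 35.6% lower (median -0.09). CM cells had 5 higher, 6 lower and 5 not past the test against NoRX cells (median -0.20), beside 28.6% of all genes higher and 27.3% lower (median 0.01).

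Sds and Gpt, which turn serine and alanine into pyruvate, were higher in DIFF cells than in both other media. Sds, serine dehydratase, had 44.9% and 30.8% on the DIFF arrays, 0.839%, 1.34% and 0.953% on the CM arrays and 1.08%, 1.34% and 1.6% on the NoRX arrays. It was well above background in DIFF cells alone, and so passed the filter only through the group where it was high. Sds was at least 14.4-fold higher in DIFF than in NoRX cells and at least 16.3-fold higher than in CM cells. Its fitted differences were 4.81 (limma adjusted p = 4.71e-06) and 5.19 (limma adjusted p = 1.47e-06). Both calls held under normexp, with smaller fitted differences of 2.26 and 2.34. Gpt, alanine aminotransferase, had 1622% and 1289% on the DIFF arrays, 424%, 411% and 411% on the CM arrays and 286%, 297% and 284% on the NoRX arrays. The 3 groups of Gpt were apart, and it rose by 2.32 ± 0.09 in DIFF against NoRX (limma adjusted p = 1.72e-08) and by 1.80 ± 0.09 in DIFF against CM (limma adjusted p = 5.95e-08).

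Slc2a2, the glucose transporter of hepatocytes, rose by 2.10 ± 0.21 in DIFF against CM (limma adjusted p = 1.2e-05). Fbp2, the muscle form of the bisphosphatase, had 16.7% and 13.5% on the DIFF arrays, 91.4%, 79.3% and 83.0% on the CM arrays and 120%, 121% and 112% on the NoRX arrays. DIFF was lowest on every array, and Fbp2 fell by 2.97 ± 0.11 in DIFF against NoRX (limma adjusted p = 1.25e-08) and by 2.49 ± 0.11 in DIFF against CM (limma adjusted p = 2.26e-08).

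Gk, glycerol kinase, rose by 1.16 ± 0.11 in CM against NoRX (limma adjusted p = 1.43e-05). Pck2, the mitochondrial carboxykinase, fell by 0.60 ± 0.09 (limma adjusted p = 0.000317), with 21.2%, 21.9% and 20.6% on the CM arrays and 31.9%, 31.1% and 33.3% on the NoRX arrays. Gpd1, glycerol-3-phosphate dehydrogenase, fell by 0.58 ± 0.09 (limma adjusted p = 0.000341). In DIFF against NoRX Gpd1 fell further, by 1.26 ± 0.10 (limma adjusted p = 3.46e-06). Pck2 instead rose in DIFF cells, by 0.73 ± 0.10 against NoRX (limma adjusted p = 0.000216) and by 1.33 ± 0.10 against CM (limma adjusted p = 1.5e-06).

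**Figure D3:**
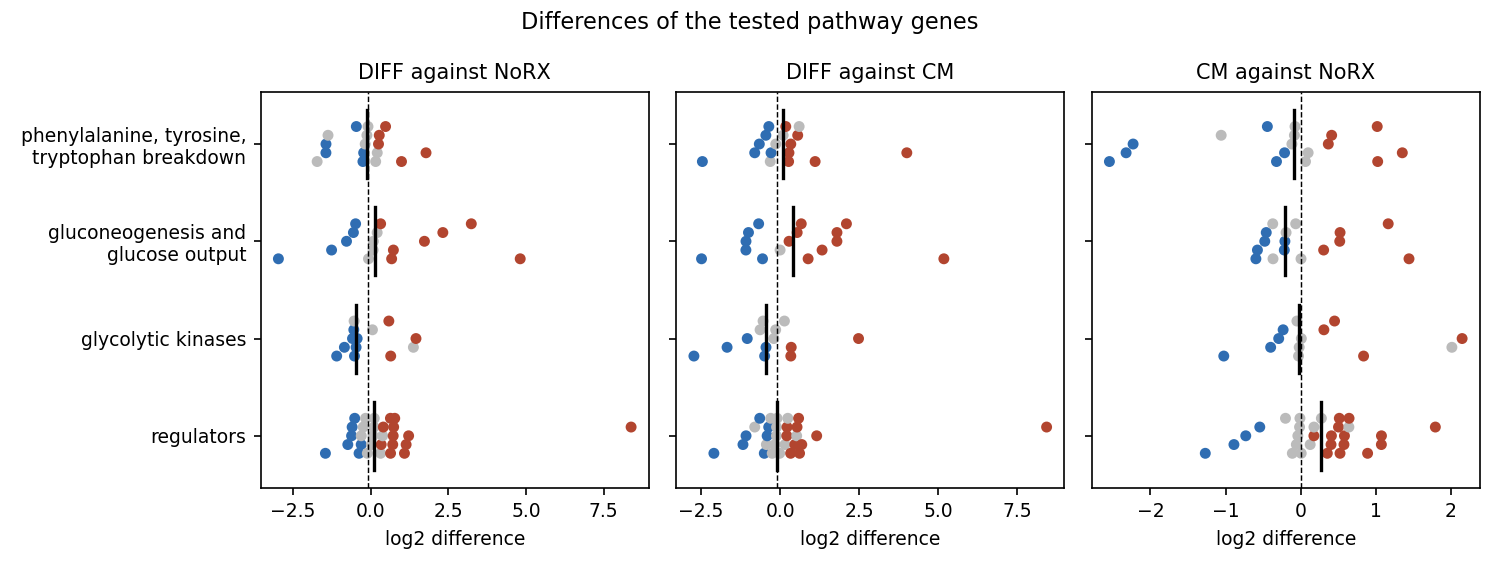
Log2 difference (x axis) of every tested gene of the 4 lists (rows) in each comparison (panels). Red points were higher and blue points lower past the adjusted p threshold in limma, grey points did not pass, black bars are list medians, and the dashed line is the median of all genes. Each list holds red and blue points in each comparison.

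All 13 glycolytic kinases on the list, which run opposite or regulatory steps to the glucose-making enzymes, were tested. Set against NoRX, 3 were higher in DIFF, 7 lower and 3 not past the test (median -0.47), beside 16.5% of all genes higher and 28.9% lower (median -0.08). Set against CM, 3 were higher in DIFF, 5 lower and 5 not past the test (median -0.45), beside 26.1% of all genes higher and 35.6% lower (median -0.09). In CM cells 4 were higher, 4 lower and 5 not past the test against NoRX cells (median -0.02), beside 28.6% of all genes higher and 27.3% lower (median 0.01).

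Among the kinases that set the level of fructose 2,6-bisphosphate, an inhibitor of Fbp1, Pfkfb4 and Pfkfb2 moved in opposite directions. Pfkfb4 had 65.8% and 51.2% on the DIFF arrays, 397%, 413% and 349% on the CM arrays and 91.7%, 87.2% and 82.2% on the NoRX arrays. CM stood above both other groups, and Pfkfb4 rose by 2.15 ± 0.10 in CM against NoRX (limma adjusted p = 1.35e-07) and fell by 2.73 ± 0.11 in DIFF against CM (limma adjusted p = 1.76e-08). Pfkfb2 had 61.2% and 53.5% on the DIFF arrays, 9.29%, 10.2% and 11.3% on the CM arrays and 23.0%, 19.8% and 19.7% on the NoRX arrays. It rose by 1.46 ± 0.14 in DIFF against NoRX (limma adjusted p = 1.46e-05) and by 2.48 ± 0.14 in DIFF against CM (limma adjusted p = 1.57e-07), and fell by 1.02 ± 0.13 in CM against NoRX (limma adjusted p = 6.96e-05). Averaging the probes of Pfkfb4 brought its 2 differences to 1.05 and -1.27, and normexp brought that of Pfkfb2 in CM against NoRX to -0.68, all past the test. Pfkfb1, the form typical of liver, rose by 0.45 ± 0.11 in CM against NoRX (limma adjusted p = 0.00705). Pfkfb1 also rose in DIFF against NoRX, by 0.59 ± 0.13 (limma adjusted p = 0.00391).

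Hk2, a hexokinase of growing cells, fell by 1.09 ± 0.07 in DIFF against NoRX (limma adjusted p = 6.23e-07) and by 1.04 ± 0.07 in DIFF against CM (limma adjusted p = 5.08e-07). Pfkm, the muscle phosphofructokinase, fell by 0.84 ± 0.07 in DIFF against NoRX (limma adjusted p = 6.54e-06) and rose by 0.84 ± 0.07 in CM against NoRX (limma adjusted p = 3.21e-06). In DIFF against CM Pfkm fell by 1.68 ± 0.07 (limma adjusted p = 2.25e-08). Pfkp, the platelet form, rose by 0.65 ± 0.08 in DIFF against NoRX (limma adjusted p = 0.000128, or 0.38 with its probes averaged). Pfkp also rose in CM against NoRX, by 0.31 ± 0.08 (limma adjusted p = 0.00548).

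**Figure D4:**
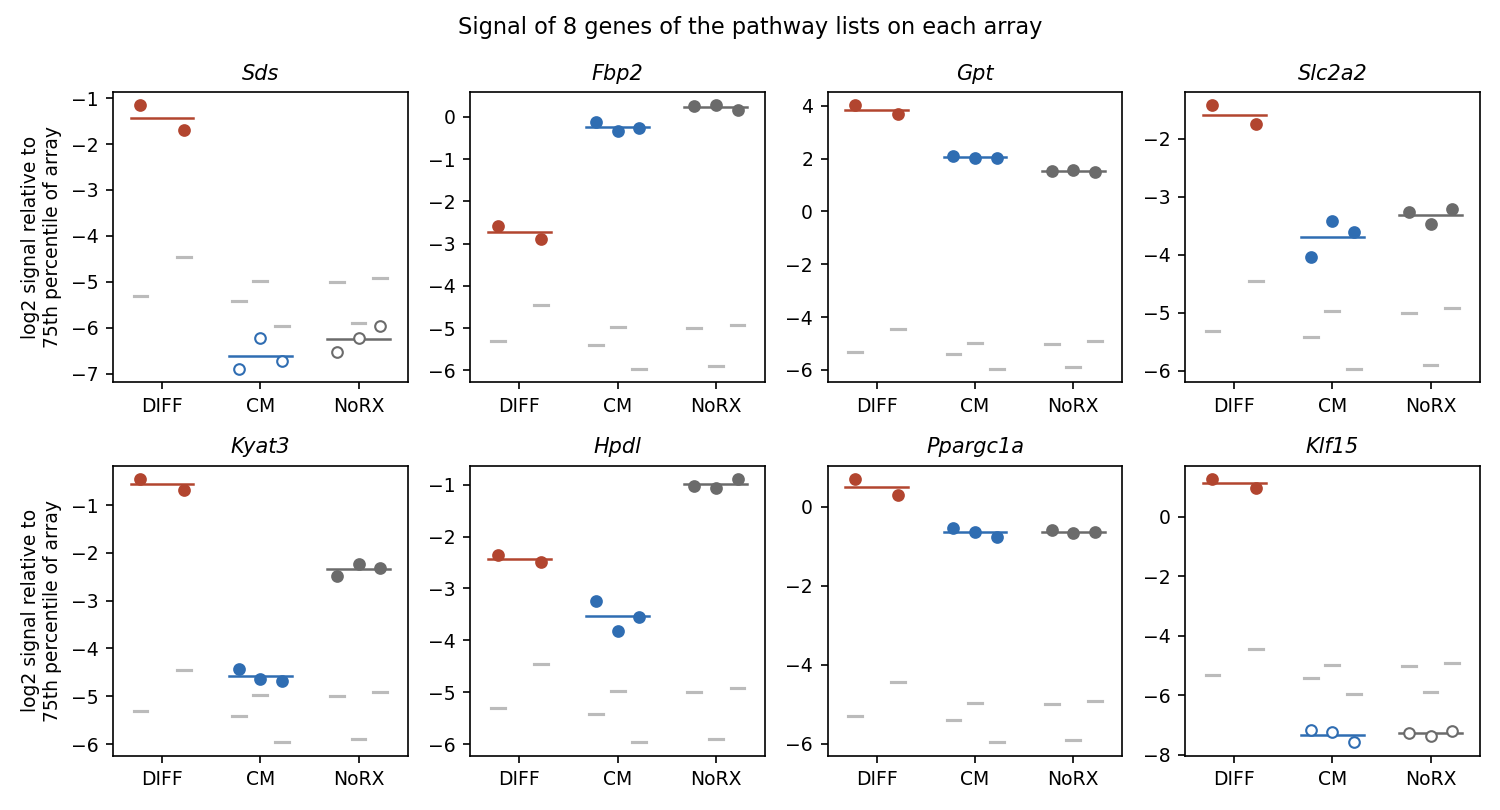
Signal of 8 genes of the lists on each array, as log2 relative to the array's 75th percentile (y axis, own range per panel), by medium (x axis). Filled points were well above background and open points were not, lines are group means, and grey bars mark the lowest signal well above background on that array. Sds and Klf15 are filled in DIFF only, Hpdl is highest in NoRX, and Kyat3 is lowest in CM.

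Of 31 regulators of these enzymes, 29 were tested. DIFF cells had 12 of them higher, 7 lower and 10 not past the test against NoRX (median 0.12), beside 16.5% of all genes higher and 28.9% lower (median -0.08). They had 10 higher, 7 lower and 12 not past the test against CM (median -0.10), beside 26.1% of all genes higher and 35.6% lower (median -0.09). CM cells had 14 higher, 4 lower and 11 not past the test against NoRX (median 0.27), beside 28.6% of all genes higher and 27.3% lower (median 0.01).

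Klf15, a transcription factor that promotes amino acid breakdown and gluconeogenesis, had 241% and 193% on the DIFF arrays and was at background on all others, with 0.522% to 0.696% on the CM arrays and 0.605% to 0.682% on the NoRX arrays. It passed the filter through the DIFF arrays alone. Klf15 was at least 83.5-fold higher in DIFF than in NoRX cells and at least 94.4-fold higher in DIFF than in CM cells. Its fitted differences were 8.38 (limma adjusted p = 3.6e-08) and 8.44 (limma adjusted p = 1.91e-08), and under normexp they were 4.55 and 4.81. Ppargc1a, a coactivator of the glucose-making genes, had 164% and 124% on the DIFF arrays, 68.3%, 63.9% and 59.3% on the CM arrays and 66.9%, 62.6% and 63.7% on the NoRX arrays. CM and NoRX overlapped (difference -0.02 ± 0.11, limma adjusted p = 0.918, a sign that turned under 5 of 24 alternatives), and Ppargc1a rose by 1.14 ± 0.12 in DIFF against NoRX (limma adjusted p = 2.4e-05) and by 1.16 ± 0.12 in DIFF against CM (limma adjusted p = 1.24e-05). As with Tat, the DIFF arrays of both genes lay above all others. The summed hepatocyte markers given beside Tat were also highest in DIFF, while Asgr1 among them was at background there, and their part was not tested.

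Nr3c1, the glucocorticoid receptor, had differences of 0.11 ± 0.07 in DIFF against NoRX, which did not pass (limma adjusted p = 0.22), and -0.41 ± 0.07 in DIFF against CM (limma adjusted p = 0.000505). The DIFF minus CM call of Nr3c1 was lost under median centring (-0.25, limma adjusted p = 0.138), while averaging its probes gave -0.69 (limma adjusted p = 0.000119), and without DIFF replicate 2 its DIFF minus NoRX difference passed (limma adjusted p = 0.0143, with a single DIFF array). It rose by 0.52 ± 0.06 in CM against NoRX (limma adjusted p = 5.83e-05). Foxo1, the forkhead factor that insulin restrains, rose by 0.64 ± 0.08 in DIFF against NoRX (limma adjusted p = 0.000141) and by 0.47 ± 0.08 in DIFF against CM (limma adjusted p = 0.000772), and was at 0.18 ± 0.08 in CM against NoRX (limma adjusted p = 0.0711), which passed under 4 of 24 alternatives. Cebpb rose by 0.74 ± 0.06 in DIFF against NoRX (limma adjusted p = 7.05e-06) and by 0.62 ± 0.06 in DIFF against CM (limma adjusted p = 1.59e-05), with 0.13 ± 0.06 in CM against NoRX (limma adjusted p = 0.09), which also passed under 4 of 24. Cebpa, the C/EBP factor of mature hepatocytes, rose by 0.78 ± 0.12 in DIFF against NoRX (limma adjusted p = 0.000422) and by 1.07 ± 0.11 in CM against NoRX (limma adjusted p = 1.65e-05), and was at -0.30 ± 0.12 in DIFF against CM (limma adjusted p = 0.0518). With slide row as a block the DIFF minus NoRX call of Cebpa was lost (limma adjusted p = 0.0626), and its DIFF minus CM difference passed under 6 of 25 alternatives.

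Hnf4a, a nuclear receptor of hepatocytes, did not share this pattern and fell by 0.51 ± 0.08 in DIFF against NoRX (limma adjusted p = 0.000615) and by 0.73 ± 0.07 in CM against NoRX (limma adjusted p = 1.96e-05). Its DIFF minus CM difference of 0.22 ± 0.08 (limma adjusted p = 0.0421) lost its call under 15 of 25 alternatives.

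Among the other named regulators, Foxa1, a forkhead factor that opens liver chromatin, had 111% and 110% on the DIFF arrays, 226%, 239% and 237% on the CM arrays and 68.3%, 67.2% and 67.0% on the NoRX arrays. The 3 groups were apart, and Foxa1 rose by 1.79 ± 0.06 in CM against NoRX (limma adjusted p = 1.54e-08). Irs1, an adaptor of the insulin receptor, fell by 1.27 ± 0.08 in CM against NoRX (limma adjusted p = 1.09e-06). Irs1 also fell in DIFF against NoRX, by 0.73 ± 0.09 (limma adjusted p = 0.00012). Prox1, a homeobox factor of hepatoblasts, rose by 1.07 ± 0.17 in CM against NoRX (limma adjusted p = 0.000358, or 0.44 and 0.0457 under normexp). Prox1 also rose in DIFF against NoRX, by 0.64 ± 0.19 (limma adjusted p = 0.0187). Creb3l3, a liver factor of the CREB family, fell by 1.45 ± 0.08 in DIFF against NoRX (limma adjusted p = 2.31e-07) and by 2.10 ± 0.08 in DIFF against CM (limma adjusted p = 9.07e-09). Crem, a cyclic AMP responsive modulator, fell by 1.18 ± 0.08 in DIFF against CM (limma adjusted p = 4.6e-07, or -0.55 with its probes averaged). Sik1, a kinase that restrains CREB coactivators, rose by 1.22 ± 0.09 in DIFF against NoRX (limma adjusted p = 2.82e-06). Sik1 also rose in CM against NoRX, by 0.89 ± 0.08 (limma adjusted p = 1.22e-05).

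The genes whose pattern over the 8 arrays was most like each tested enzyme were taken by Pearson's r of log2 levels among 13334 genes with complete values. For Tat they were Ear2 (r = 0.993), Pim3 (r = 0.991) and Cd4 (r = 0.989), and Pim3 averaged 3.79 ± 0.21 in DIFF, 1.71 ± 0.11 in CM and 1.53 ± 0.09 in NoRX (log2, SD). For Fah they were Mif4gd (r = 0.997), Ap3d1 (r = 0.996) and H2bc6 (r = 0.996), and Ap3d1 averaged 3.85 ± 0.26 in DIFF, 2.64 ± 0.06 in CM and 3.68 ± 0.05 in NoRX. For Fbp1 they were Grpel1 (r = 0.993), Taf3 (r = 0.991) and Chic1 (r = 0.990). For G6pc they were Klk12 (r = 0.974), Eln (r = 0.937) and Prm3 (r = 0.933). Fbp1 was well above background on the CM arrays alone, and G6pc on the CM arrays and DIFF replicate 1. Their correlations thus rest largely on values near background, and no comparison of G6pc passed. With 3 groups on 8 arrays, any gene that follows the order of the group means correlates highly.

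**Figure D5:**
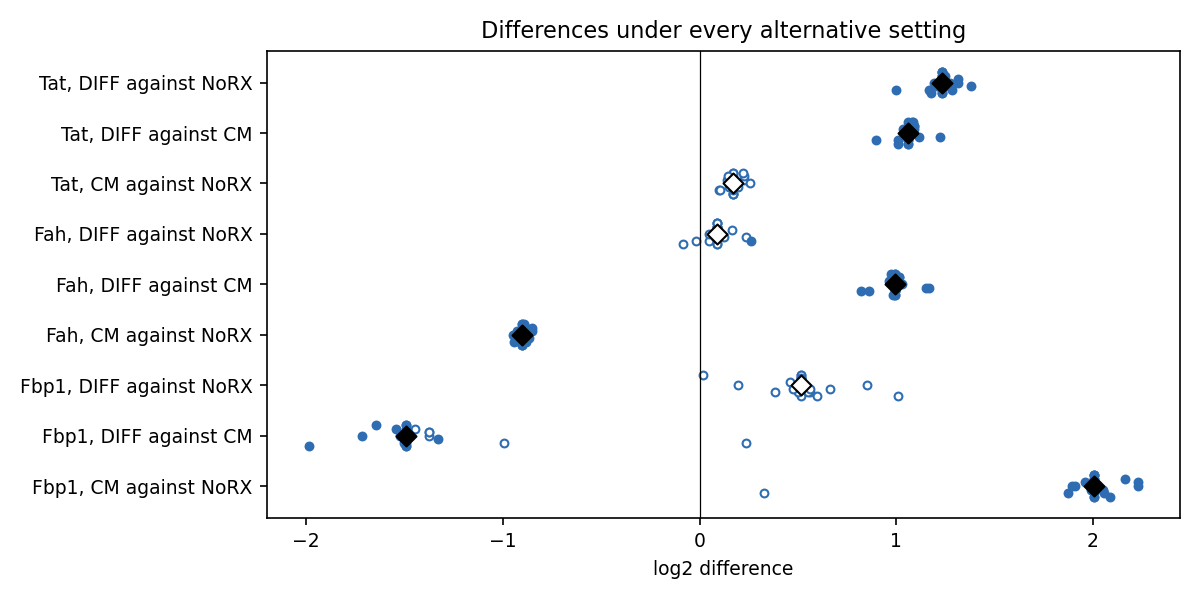
Log2 difference (x axis) of Tat, Fah and Fbp1 in each comparison (rows) as reported (diamonds) and under each alternative processing (circles). Filled symbols passed the adjusted p threshold in limma and open ones did not. The called rows of Tat and Fah keep to 1 side of 0, and both called Fbp1 rows have a circle at 0.33 or 0.24, from normexp background correction.

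The Tat and Fah calls held under each alternative run. The Tat difference in DIFF against NoRX ranged from 1.00 to 1.38 over 24 alternatives and that in DIFF against CM from 0.90 to 1.22 over 25. The Fah difference in CM against NoRX ranged from -0.95 to -0.85 over 24 alternatives and that in DIFF against CM from 0.82 to 1.16 over 25.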

How the data were processed

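Total RNA was hybridised on Agilent mouse arrays with 1 dye. Spots were quantified with Agilent Feature Extraction (version 11.0.1.1 in the submitters' processing notes). The deposited processed signal is a linear intensity, from which local background and spatial trend had been removed array by array per the file headers. Values in the series table equalled those of the scanner files (largest difference 0). No scaling between arrays is recorded there, and how RNA was handled between groups is not given in the sources used here. Every column used was matched to a sample by its labels (0 columns unused).

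The log2 signal of each array was scaled by subtracting its 75th percentile over spots that are neither controls nor outliers, and spots of a probe were averaged. Of 55681 probes, 27235 matched a RefSeq accession of GRCm38.p6 and 28446 did not. The array design used mm9, so probe coordinates are not given. Where a gene had several probes the brightest was kept, and genes well above background on at least 2 arrays were tested (14025, with 30 missing values). Groups were compared in 1 limma 3.58.1 fit (R 4.3.3, eBayes with a mean-variance trend, two-sided, Benjamini-Hochberg over all genes, threshold 0.05). The functions were tested on simulated data. For a bound ("at least"), each dim array's value was raised to the lowest signal well above background on that array, unless already higher, before group means were compared. Figures were drawn with matplotlib 3.10.9.

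The 8 enzymes, the pathway lists and the marker lists were chosen with earlier results of these data known. All 8 were named; of each list up to 4 genes per comparison with the largest difference past the test, 8 regulators always, and the 3 genes most like each tested enzyme; some genes that this rule names are not reported here. Alternatives covered background correction, scaling, filters, probe choice, array weights, the variance model, slide row, the replicate number as a block, the arrays in the fit and each array left out in turn. The files hold no mean spot signal, so normexp (offset 50) was run on the median spot signal. Promoters are RefSeq's, and all 8 matched. The precision is limited by the 8 arrays. The source label numbers both DIFF arrays as replicate 1 and their titles as 1 and 2; both averaged to 1 sample was an alternative.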

Additional observations from a re-analysis of the deposited data

How the results depend on the processing

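The counts of genes changed ranged from 5253 to 7931 in DIFF against NoRX, 7774 to 9586 in DIFF against CM and 6740 to 9312 in CM against NoRX when each array was left out, and those of the tested enzymes from 1 to 2, 2 to 3 and 2 to 2. In DIFF against NoRX, 3797 genes passed with array weights and 3222 with slide row as a block, where 6371 passed as reported. Without DIFF replicate 2, 3764 were higher and 3371 lower, and without DIFF replicate 1, 2003 and 5928. Median centring moved the median of all genes from -0.08 to 0.07 in DIFF against NoRX and from -0.09 to 0.07 in DIFF against CM, with 2502 higher and 2061 lower (2318 and 4053 as reported) and 4070 higher and 3095 lower (3655 and 4997 as reported). The count of enzymes changed in CM against NoRX was 1 under normexp and 1 with only genes above background on all arrays, and in DIFF against NoRX it was 2 without a filter, where Hpd was added, and 2 without DIFF replicate 2, where Fah was added. The cause of the normexp, array weight and slide row differences was not tested.

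Signs turned mostly for values that had not passed. In DIFF against NoRX, Fah was -0.019 under normexp and -0.083 to 0.262 with each array left out, and G6pc was 0.328 under normexp, 0.042 under median centring, 0.062 under quantile normalization, 0.641 with the row block and -0.213 to 0.001863 with each array left out. In DIFF against CM, G6pc was 0.291 and Fbp1, a called value, was 0.237 under normexp. In CM against NoRX, Klf15 was 0.013 under quantile normalization, 0.104 with the row block, 0.104 within row 1 and -0.139 to 0.069 with each array left out. Ppargc1a was 0.21 with probes averaged, 0.085 with the row block, 0.085 within row 1 and -0.065 to 0.037 with each array left out.

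With the replicate number as a block, 2081 genes were higher and 3564 lower in DIFF against NoRX, 3475 and 4661 in DIFF against CM, and 3762 and 3649 in CM against NoRX; it changed the call of none of the 4 tested enzymes. The numbers were not taken to pair arrays, since same-numbered CM and NoRX arrays deviated from their group means with correlations of -0.06 to 0.01, and DIFF and NoRX arrays at -0.02, although DIFF and CM arrays did so at 0.09 and 0.18. Both settings of the spots behind the 75th percentile were added after seeing the data. Array number and signal near background limit what can be said of Fbp1, G6pc and Hpd.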

Other observations

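Kynu, a hydrolase of the kynurenine route that follows Tdo2, read 0.510% of the 75th percentile on DIFF replicate 1 and 2162% on DIFF replicate 2, where its spot was marked for uneven background. It read 0.513% to 0.730% on the CM arrays and 0.622% to 0.704% on the NoRX arrays. Kynu was not tested, being well above background on 1 array, and it was singled out after its values were seen.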
